A study of Sus scrofa with 2 samples.

Results

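The ZNF zinc finger genes of the pig genome were placed against the chromatin loops and domains of the spleen. Members were the protein-coding genes of RefSeq's Sscrofa11.1 annotation, on chromosomes 1 to 18, whose symbol is ZNF followed only by digits and an optional letter. There were 242 of them among 18722 protein-coding genes. Of these, 113 lay in 34 clusters, in which each gene was within 100 kb of the next member, and 129 lay alone. A further 12 genes with such names were on chromosome X and were left out by the rule. Zinc finger genes listed under LOC numbers have no ZNF symbol and were not members.

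ZNF genes encode proteins that mostly carry arrays of C2H2 zinc fingers, each a small fold around a zinc ion that reads a few bases of DNA. Many also carry a KRAB domain, which recruits the corepressor TRIM28 and the histone methyltransferase SETDB1 to silence transposable elements. The family grew by tandem duplication, so many members stand in rows on a chromosome, while others are old single genes with roles in transcription, RNA binding or translation.

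The chromatin contacts came from in situ Hi-C on spleen tissue of Sus scrofa, in a series on transposable elements and genome folding. There was 1 group with 2 biological replicates, and no second tissue, treatment, genotype or age was given. Both deposited lists cover the series and hold no value per replicate, so no test over samples was possible, no p-value is given and no difference below is shown to exceed replicate error. The lists hold contacts and no expression, so the tissue label could not be checked against marker genes. Of 3410 loops, pairs of 25 kb anchors with more contacts than their surroundings, 3261 were on chromosomes 1 to 18. Of 1927 topologically associating domains (TADs), stretches that contact themselves more than their surroundings, 1908 were. The depth of the libraries is unknown here, and the contacts per loop are the only measure of precision.

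ZNF genes met loop anchors in a lower share than protein-coding genes at large. Either annotated end of 31 of 242 members lay in an anchor, which is 12.8% (95% Wilson interval 9.17 to 17.6%), against 17.8% of all protein-coding genes. With neighbouring genes counted once per 100 kb the share was 13.7% (9.43 to 19.4%), and the interval then includes the 17.8% of all genes. In all, the interval included the share of all genes under 4 of 8 other settings, though the share itself was lower under each of the 8. Those 8 include a setting without the 2 clusters that have the most anchored members, chosen after the values were seen. That setting could only lower the share (9.96%). Another of the 8 took zinc finger genes out of the comparison genes alone (17.9%). It left the share of members at 12.8% by design, so it adds little to these tallies. The clustered members were at anchors in 12 of 113 cases (10.6%, 6.18 to 17.6%), and the lone members in 19 of 129 (14.7%, 9.64 to 21.9%). The intervals take genes as independent, although neighbours can share an anchor, and the intervals of clustered and lone members overlap over most of their width. The other zinc finger families, ZBTB, ZSCAN, ZKSCAN and ZFP, had 12 of 67 genes at anchors (17.9%, 10.6 to 28.7%). Of these, ZBTB genes, which carry a BTB domain for dimerization, were at anchors in 8 of 39.

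**Figure D1:**
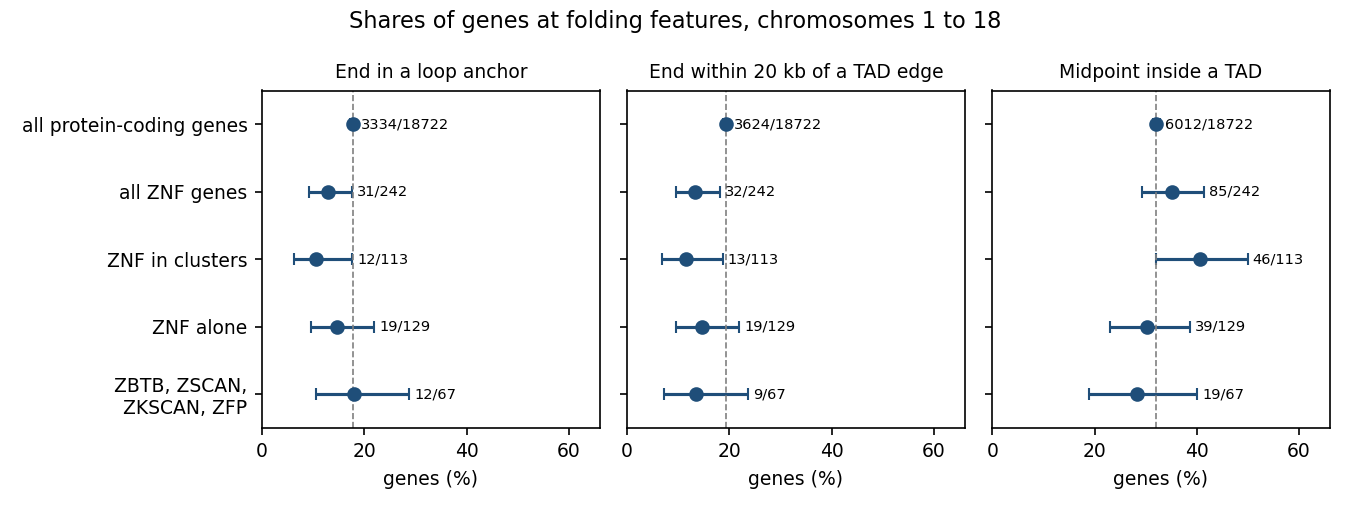
Points give the percent of genes with an end in a loop anchor, with an end within 20 kb of a TAD edge, and with the midpoint inside a TAD, for 5 groups of genes on chromosomes 1 to 18; bars are 95% Wilson intervals, the dashed line marks all protein-coding genes and the counts stand beside each point. ZNF genes lie left of the dashed line at anchors (31 of 242) and edges (32 of 242), and clustered ZNF genes lie right of it inside TADs (46 of 113).

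At the edges of TADs the share of ZNF genes was also below that of all genes. Of the 242 members, 32 had an end within 20 kb of a TAD edge (13.2%, Wilson interval 9.52 to 18.1%), against 19.4% of all protein-coding genes. They were 13 of 113 clustered members (11.5%, 6.85 to 18.7%) and 19 of 129 lone members (14.7%, 9.64 to 21.9%). The other zinc finger families had 9 of 67 there (13.4%, 7.23 to 23.6%), a share close to that of ZNF genes, with an interval that includes the 19.4% of all genes. Within 10 kb of an edge the interval of the members (5.41 to 12.4%) included the 11.5% of all genes. Inside TADs, by contrast, the share of ZNF genes was not below that of other genes. The midpoint of 85 members (35.1%, 29.4 to 41.3%) lay in a TAD, against 32.1% of all protein-coding genes. For clustered members the share was 46 of 113 (40.7%, 32.1 to 49.9%) and for lone members 39 of 129 (30.2%, 23.0 to 38.6%). In all, 134 members were neither at an anchor, nor near an edge, nor inside a TAD, which is 55.4% of members against 53.0% of all genes. Another 55 lay inside a TAD away from its edges and from anchors, 22.7% against 16.4%. These were 32 clustered members (28.3% of the clustered) and 23 lone ones (17.8% of the lone), and 10 of the 55 shared a TAD on chromosome 6. No interval was computed for these shares.

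Members were spread unevenly over chromosomes. Chromosome 6 held 77 of them (31.8%), 51 in clusters and 26 alone, followed by chromosome 3 with 31 and chromosome 14 with 21. Chromosome 11 held none. On chromosome 6, 6 of 77 members were at an anchor (7.79%, 3.62 to 16.0%), against 343 of the 2072 protein-coding genes of that chromosome (16.6%). On the other chromosomes together, 25 of 165 were (15.2%, 10.5 to 21.4%), against 2991 of the 16650 genes there. On chromosome 6 the interval lies below the share of all its genes, and on the other chromosomes it includes that share; the difference between them was not tested. On chromosome 3, 7 of 31 members were at anchors (22.6%), against 20.3% of all its genes, and on chromosome 14, 4 of 21, against 21.1%. Both shares are near those of all genes there. However, 4 of the 7 on chromosome 3 shared 1 loop, and so did all 4 on chromosome 14. Chromosome 18 had 10 members with 0 at an anchor, against 17.9% of all its genes, and chromosome 4 also had 10 with 0, against 16.2%. Of the 10 on chromosome 18, 8 stood in the same cluster. No interval was computed for these counts.

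**Figure D2:**
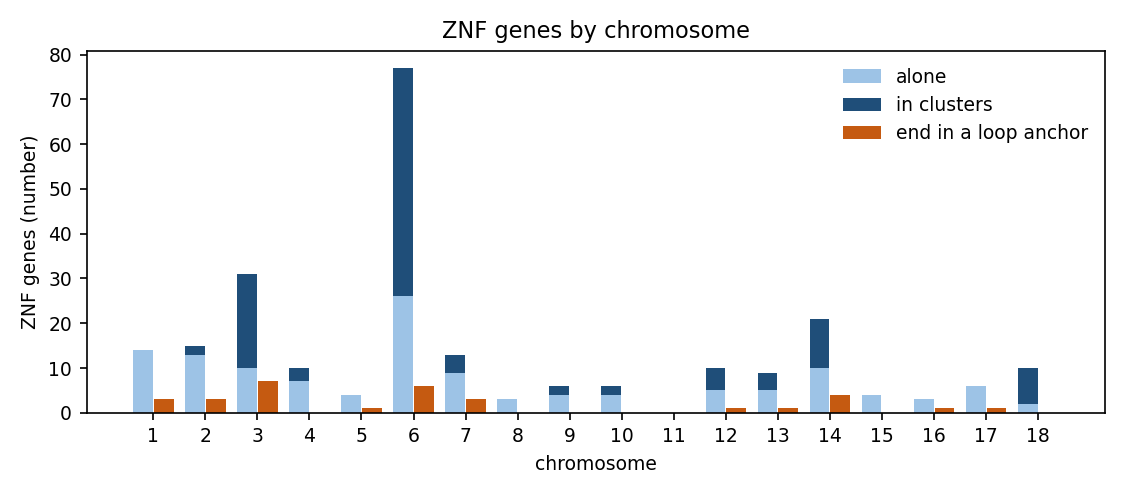
Bars give the number of ZNF genes on each of chromosomes 1 to 18, with lone genes in light blue, clustered genes in dark blue stacked above them, and the genes with an end in a loop anchor in orange beside them. Chromosome 6 has the highest bar with 77 genes and 6 at anchors, while chromosome 3 has 31 genes and 7 at anchors.

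Members stood in gene-rich surroundings and farther from anchors than genes at large. A member had a median of 21 other protein-coding genes with midpoints within 500 kb on either side, against 14 for all genes, and the medians were 29 for clustered and 16 for lone members. These counts include fellow members, so the higher median of clustered members follows in part from how clusters were defined. The median distance from the nearer gene end to the nearest anchor was 143 kb for members, against 88.0 kb for all genes. It was 174 kb for clustered members and 115 kb for lone ones. Of the members, 59 (24.4%) were over 500 kb from any anchor, against 18.8% of all genes. Neighbours share such distances, and whole clusters were among the 59. They include all 8 members from ZNF282 to ZNF775 on chromosome 18 and all 4 from ZNF568 to ZNF527 on chromosome 6. No interval was computed for this share, and neighbours were not reduced to 1. ZNF512B on chromosome 17 was farthest, at 3447 kb. ZNF143, a promoter-binding factor often discussed together with CTCF and named here for that background, was 2570 kb from an anchor and outside any TAD. At the other extreme, 18 members (7.44%) missed an anchor by 10 kb or less, much as the 7.38% of all genes that did. The lengths of members had nearly the same median as those of all genes, 20.8 and 20.7 kb.

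**Figure D3:**
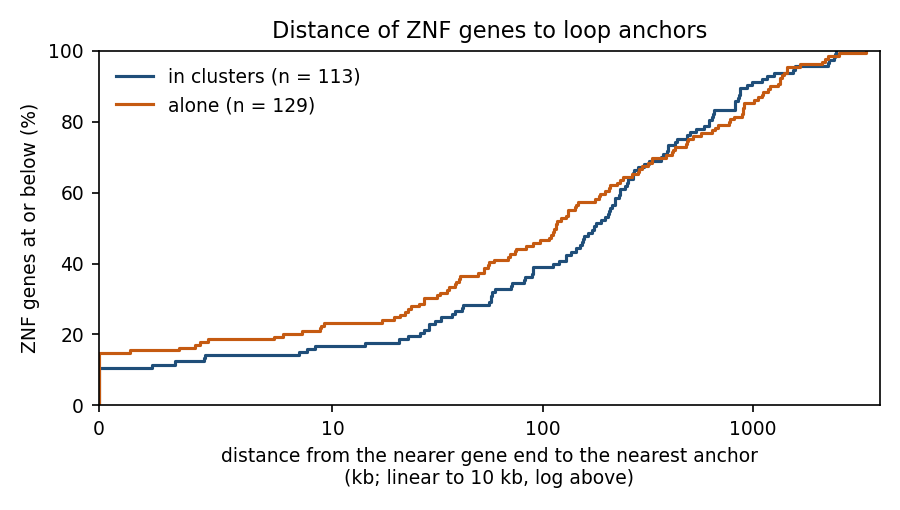
Lines give the percent of clustered (blue, n = 113) and lone (orange, n = 129) ZNF genes whose nearer end lies within a given distance of the nearest loop anchor, in kb, on an axis that is linear to 10 kb and logarithmic above. Both lines start at the genes inside an anchor (10.6% and 14.7%), and the medians are 174 kb and 115 kb.

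The anchor share of members was also read by gene density. When all protein-coding genes were divided into 4 classes by the number of neighbours within 500 kb, members with 0 to 7 neighbours were at anchors in 2 of 38 cases, against 15.5% of all genes. With 8 to 14 neighbours 3 of 38 members were, against 21.2%. With 15 to 28 neighbours 16 of 74 were (21.6%, Wilson interval 13.8 to 32.3%), against 18.4%. In this class 11 of 35 lone members were (31.4%, 18.6 to 48.0%), an interval just above the share of all genes, and 5 of 39 clustered members (12.8%). In the densest surroundings 10 of 92 were (10.9%, 6.01 to 18.9%), against 16.3%, with lone members at 8.57% and clustered members at 12.3%. So lone members were not at anchors in a higher share than clustered ones in every class. In the densest class, however, 4 of the 7 clustered members at anchors shared 1 loop. With 15 to 28 neighbours, 4 of the 5 shared 1 other loop. The share of members was above that of all genes in 1 of the 4 classes. The interval included the share of all genes in each class but that with 8 to 14 neighbours (2.72 to 20.8%).

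The 31 members at anchors took part in 30 loops, and none had more than 2. Among them 26 had 1 loop and 5 had 2, so 16.1% had 2 or more, against 28.3% of all genes at anchors. That share rests on 5 members, and no interval was computed for it. Each of the 5 had 1 loop when touching pixels were reduced to 1. The share of all genes was not recomputed in that way. The 30 loops had a median span of 125 kb (95% interval from order statistics 100 to 175 kb), with a range of 100 to 500 kb, against 175 kb for all 3261 autosomal loops, whose longest spanned 9125 kb. The median of observed contacts was 116.5 (range 58 to 198), against 109 for all autosomal loops. The ratio of observed contacts to those expected from the donut of surrounding pixels had a median of 1.85 (1.71 to 1.97), against 2.001. The largest of the 4 FDR values that the authors' deposited table gives per loop, called its FDR below, had a median of 0.0241 (0.0111 to 0.0488), against 0.0129. The intervals of the span, the contacts (97 to 132) and the FDR reach the medians of all loops, and that of the ratio lies below it. The interval of the ratio included the median of all loops when touching pixels were reduced to 1 (1.64 to 2.04, against 2.036) and in the loops with the lowest FDR (1.79 to 2.22, against 2.16).

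**Figure D4:**
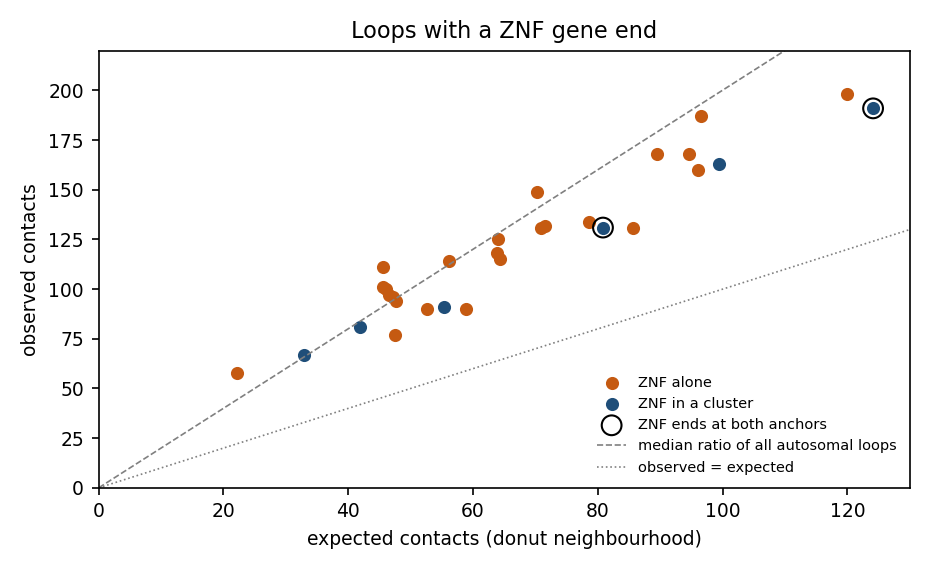
Each point is 1 of the 30 loops with a ZNF gene end, placed by expected contacts (x axis) and observed contacts (y axis), in blue for clustered and orange for lone genes, with circles around the 2 loops that have ZNF ends at both anchors. Most points lie below the dashed line, the median ratio of 2.001 of all autosomal loops, and all lie above the dotted line of equal values.

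Both anchors of a loop held ends of protein-coding genes in 18 of the 30 loops (60.0%, Wilson interval 42.3 to 75.4%), against 890 of 2265 autosomal loops with any gene end (39.3%). A loop with genes at both anchors has more chances to include a member, and this was not corrected for. The other 12 loops led from a ZNF gene to an anchor without any protein-coding gene end. Of the 27 distinct anchors with a ZNF end, 14 also held an end of another gene and 4 held ends of 2 ZNF genes. By their place in domains, 5 of the 30 loops joined both edges of a TAD (16.7%, 7.34 to 33.6%), against 29.8% of autosomal loops, with an edge counted when it lay within 20 kb of the anchor. Another 10 lay inside a TAD (33.3%, Wilson interval 19.2 to 51.2%), against 34.3% of autosomal loops. A further 3 crossed or left one (3.46 to 25.6%), against 7.61%. The other 12 lay outside TADs (24.6 to 57.7%), against 28.3%. In each of these classes, that of loops joining both edges included, the interval contained the share of autosomal loops.

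The 5 members with 2 loops were all lone genes. ZNF598, the ubiquitin ligase that marks collided ribosomes, lay on chromosome 3 in the anchor chr3:39950001-39975000, together with ends of NPW and SLC9A3R2. Its loop of 125 kb had 149 contacts against 70.2 expected, joined both edges of a TAD of 160 kb and led to an anchor with ends of PKD1, RAB26 and TRAF7. Its loop of 100 kb, to the adjoining bin, had 115 contacts against 64.4 expected. These pixels touch each other in the contact map.

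ZNF217, a repressor known for its amplification in breast cancer, lay in the anchor chr17:54625001-54650000. Its loops of 250 and 275 kb had 132 and 131 contacts against 71.5 and 70.9 expected, both inside a TAD of 450 kb. The longer led to an end of BCAS1, the only other protein-coding gene with its midpoint in that TAD, and the shorter led to a bin without a gene end. ZNF346, a protein that binds double-stranded RNA, shared the anchor chr2:80875001-80900000 with UIMC1, a subunit of a BRCA1 complex. Its loops of 350 and 375 kb had 94 and 111 contacts against 47.7 and 45.6 expected, and the longer led to TSPAN17, of the tetraspanin family. Both of these pairs again touch, and the loops of ZNF346 close a TAD of 400 kb.

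ZNF385A, which binds RNA and p53, was at the anchor chr5:19550001-19575000 with GPR84, a fatty acid receptor of myeloid cells. Its longer loop, of 325 kb with 58 contacts against 22.2 expected, ended at the genes HOXC5, HOXC6 and HOXC8, developmental transcription factors. This was the highest ratio among the 30 loops, 2.61, with the fewest contacts. Its other loop spanned 100 kb, with 160 contacts against 96.1 expected, to an anchor without a gene end. The paralogs ZNF385B, ZNF385C and ZNF385D, named here because they belong to the same subfamily, were at no anchor, at distances of 1106, 32.4 and 1410 kb. ZNF691 shared the anchor chr6:168575001-168600000 with ERMAP, an erythroid membrane protein, and its loops of 125 and 150 kb had 90 and 97 contacts against 52.7 and 46.5 expected. These pixels touch as well, and neither led to a gene end.

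The other lone genes at anchors had 1 loop each. ZNF774 on chromosome 7 had the most contacts of all 30 loops, 198 against 120 expected, over 100 kb and with no gene end at the far anchor. ZNF883 on chromosome 1 had 187 contacts against 96.6 expected over 100 kb and shared its anchor with ZFP37, another zinc finger gene. Its FDR in the authors' deposited table, 3.19e-05, was the lowest of the 30 loops, next to 3.20e-05 for the longer loop of ZNF346. ZNF3 had 168 contacts against 94.6 expected over 100 kb, to a bin without a gene end. ZNF76, a paralog of ZNF143, shared its anchor with DEF6, an exchange factor of lymphocytes, and had 168 contacts against 89.4 expected over 125 kb. ZNF652, a DNA-binding repressor, was joined over 100 kb to an end of PHB, a mitochondrial scaffold protein, with 134 contacts against 78.5 expected. All 5 loops had ratios between 1.65 and 1.94, below the autosomal median of 2.001.

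Of the remaining lone genes at anchors, some belonged to loops that closed a TAD. ZNF292, a large nuclear zinc finger protein, had 101 contacts against 45.5 expected over 175 kb, and ZNF609, a partner of the cohesin loader NIPBL, which shared its anchor with OAZ2, had 114 against 56.1 over 275 kb. Both loops joined both edges of a TAD, and neither led to a gene end at the far anchor. ZNF131, a BTB zinc finger protein, was joined over 175 kb to CCL28, a mucosal chemokine, with 100 contacts against 46.1 expected. ZNF333 shared its anchor with ADGRE3, a receptor of myeloid cells, and was joined to an anchor with ends of CLEC17A, a lectin of B cells, NDUFB7, a subunit of mitochondrial complex I, and TECR, an enzyme of fatty acid elongation, with 125 contacts against 63.9 expected. ZNF414 shared its anchor with MYO1F, a myosin of leukocytes, and was joined to ends of MARCH2, a ubiquitin ligase, and RAB11B, a GTPase of endosome recycling, with 131 contacts against 85.6 expected. ZNF654 shared its anchor with C13H3orf38 and was joined to CGGBP1, which binds CGG repeats, with 118 contacts against 63.9 expected. The other 3, ZNF114, ZNF169 and ZNF304, had 77 to 96 contacts over 100 to 200 kb.

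The clusters were small in number of named genes. Of the 34, 17 had 2 members, 5 had 3 and 12 had 4 or more, with 8 at most, and 15 of the 34 were on chromosome 6. Their median span from the first to the last member was 91.6 kb, with a range of 20.4 to 459 kb. The closest calls of the 100 kb rule were ZNF200 and ZNF213, joined at a gap of 99.7 kb, and ZNF829 and ZNF383 at 97.5 kb. Just outside it were ZNF565 and ZNF567 at 106 kb and ZNF527 and ZNF570 at 114 kb. Of the 34 clusters, 6 had a member at an anchor and 28 had none, while 8 had an anchor over any part of their span. A TAD held all members' spans in 9 clusters, a TAD edge fell inside 6, and 19 had neither a member midpoint in a TAD nor an edge inside. Groups of other genes of like span were not counted, so none of these numbers is shown to be particular to ZNF clusters.

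Clustered genes at anchors came mainly from 2 clusters, which held 8 of the 12. The cluster on chromosome 3 ran from ZNF689 to ZNF48 over 159 kb with 6 members. Its loop joined ZNF764 and ZNF768 at the anchor chr3:17800001-17825000 to ZNF771 and ZNF48 at chr3:17900001-17925000. ZNF768 is known to bind an old family of short repeats, and the first anchor also held an end of ITGAL, the alpha chain of the leukocyte integrin LFA-1. The second anchor also held ends of DCTPP1, which clears modified nucleotides, and SEPT1, a septin. The loop had 191 contacts against 124 expected, a ratio of 1.54, and an FDR of 0.0872 in the authors' deposited table. A TAD of 150 kb ended where the second anchor begins and held the midpoints of ZNF689, ZNF688, ZNF764 and ZNF768, so the loop crossed its edge.

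The cluster on chromosome 14 ran from ZNF10 to ZNF605 over 161 kb, with 5 members and no other protein-coding gene between them. ZNF10, also called KOX1, supplied the KRAB domain most used in engineered repressors. Its loop joined ZNF10 and ZNF891 at the anchor chr14:22500001-22525000 to ZNF84 and ZNF605 at chr14:22600001-22625000, while ZNF140 lay between the anchors. It had 131 contacts against 80.8 expected, a ratio of 1.62, and an FDR of 0.0589 in the authors' deposited table. The whole cluster lay in a TAD of 220 kb, in which CHFR, a mitotic checkpoint gene, was the only other gene by midpoint. These 2 loops were the only ones among the 30 with ZNF ends at both anchors. Without these 2 clusters, 4 of 102 clustered members were at anchors, which is 3.92%, against 10.6% with them. That choice was made after the values were seen.

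**Figure D5:**
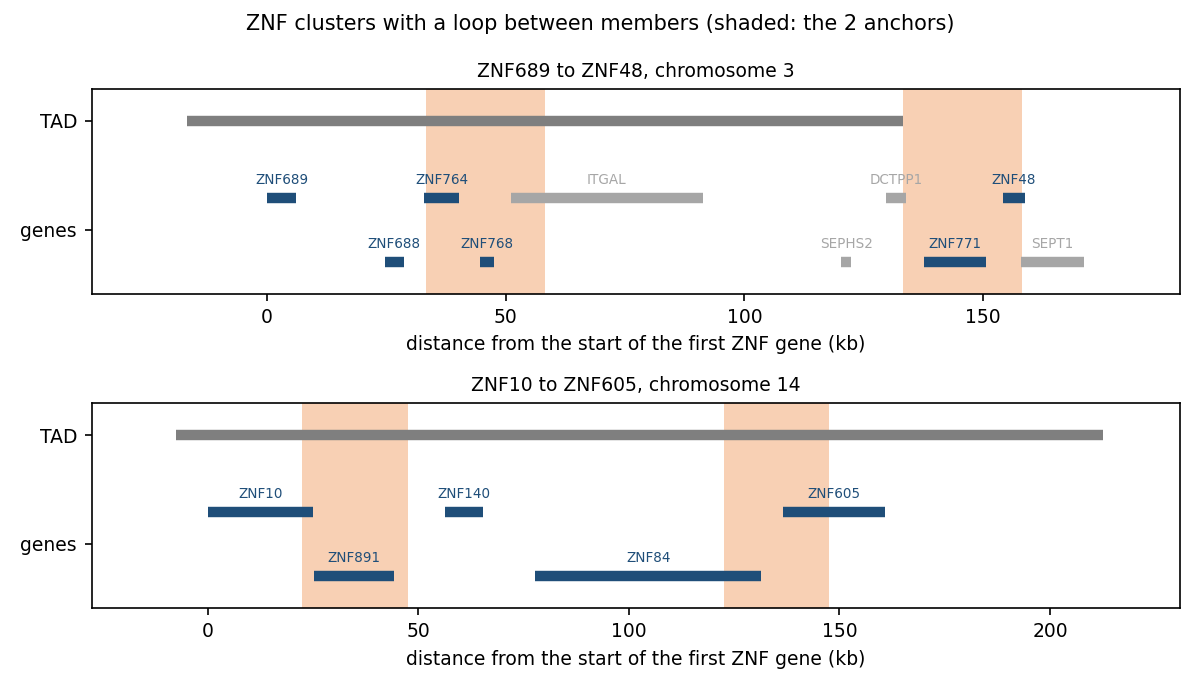
Maps of the 2 clusters with a loop between members, on chromosome 3 (top) and 14 (bottom), with the distance from the start of the first ZNF gene in kb on the x axis; blue bars are ZNF genes, grey bars other protein-coding genes, the upper grey bar the TAD, and shaded bands the 25 kb anchors. On chromosome 3 the TAD ends where the second anchor begins, and on chromosome 14 both anchors lie within the TAD.

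The other 4 anchored members of clusters were ZNF575, ZNF667 and ZNF134 on chromosome 6 and ZNF165 on chromosome 7. ZNF575 shared its anchor with ETHE1, a mitochondrial sulfur dioxygenase. It was joined over 100 kb to ends of CADM4, an adhesion molecule, and PLAUR, the urokinase receptor, with 163 contacts against 99.5 expected. ZNF134 had the longest of the 30 loops, 500 kb, with 81 contacts against 41.9 expected, inside a TAD of 630 kb that also held ZNF671 and ZSCAN4. ZNF667 had 91 contacts against 55.3 expected over 125 kb, and ZNF165 had 67 against 32.8 over 300 kb. The far anchors of the last 3 held ends of LOC genes alone. Across the 6 loops of clustered members the FDR in the authors' deposited table ran from 0.0130 to 0.0872. Among the 1600 autosomal loops with the lowest FDR, up to 0.0111, 0 of the 113 clustered members were therefore at an anchor, which allows a share of up to 2.65% when 3 counts are taken as the floor (upper Wilson limit 3.29%). In the same loops 9 of the 129 lone members were (6.98%), against 9.66% of all protein-coding genes.

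The largest cluster had no loop at all. It ran from ZNF282 to ZNF775 on chromosome 18, with 8 members over 459 kb, 820 kb from the nearest anchor, 65.1 kb from the nearest TAD edge and outside every TAD. On chromosome 3, the 6 members from ZNF597 to ZNF205 lay in a TAD of 360 kb, 119 kb or more from any anchor, with ZNF205 4.37 kb from its edge. On chromosome 6, the clusters from ZNF135 to ZNF446 and from ZNF628 to ZNF581, with 6 members each, were outside TADs. Their nearest member ends were 129 and 3.27 kb from an anchor. For the cluster from ZNF628 to ZNF581 this anchor lay over the span of the cluster, between member ends. The cluster from ZNF667 to ZNF835, also with 6, was 1039 kb from the nearest edge.

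TADs held long rows of members in a few places. The chromosome 6 TAD at chr6:45580001-46680000 spanned 1100 kb and held 10 ZNF midpoints among 20 protein-coding genes. These were the clusters from ZNF567 to ZNF566 and from ZNF568 to ZNF527, and ZNF570. The other 10 genes were ZFP14 and 9 genes under LOC numbers. None of the 10 ZNF genes was at an anchor, and the nearest end of the first cluster was 435 kb from one. At chr6:50640001-51020000, a TAD of 380 kb held ZNF283, ZNF404, ZNF45, ZNF112 and ZNF180, likewise without an anchored member. At chr13:27620001-28010000, a TAD of 390 kb held ZNF445, which helps keep genomic imprints, with ZNF660, ZNF197 and ZNF35. In all, 50 TADs held a member midpoint, 11 of them 2 or more and 6 of them 4 or more. Their median length was 270 kb (interval from order statistics 220 to 360 kb), against 260 kb for the 1845 autosomal TADs with any gene midpoint. Their median number of genes was 5.5 against 2. A TAD with more genes has more chances to hold a member, and this was not corrected for.

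Lone genes were the only gene by midpoint in 5 of the 50 TADs with a member, against 586 of the 1845 TADs with any gene midpoint (31.8%). A TAD with 1 gene has fewer chances to hold a member, and these shares were not corrected for that. ZNF608, a paralog of ZNF609, had a TAD of 2220 kb on chromosome 2 to itself and was 1318 kb from an anchor. ZNF462, a gene of brain and craniofacial development, had a TAD of 1240 kb on chromosome 1. ZNF618 and ZNF516, a regulator of brown fat, had TADs of 290 and 260 kb on the same chromosome, with an end 9.35 and 0.788 kb from an edge. ZNF281, a transcription factor of stem cells, had a TAD of 190 kb on chromosome 10. None of the 5 was at an anchor, though ZNF618 missed one by 4.35 kb.

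Some members lay beneath loops without touching them. Of the 242, 43 lay wholly between the anchors of at least 1 loop (17.8%, Wilson interval 13.5 to 23.1%), against 19.4% of all protein-coding genes. They were 23 of 113 clustered members (20.4%) and 20 of 129 lone members (15.5%). The most loops above a member were 11, over ZNF331, a gene imprinted in humans, and over the cluster from ZNF615 to ZNF577 on chromosome 6. The loops over that cluster spanned 2125 to 2825 kb, with 18 to 138 contacts and, in the authors' deposited table, FDR values up to 0.0780. ZNF391 and ZNF184 on chromosome 7 lay beneath 3 loops of 250 to 625 kb. Of the 34 clusters, 4 were bridged in this way by a loop with an anchor on either side. Like groups of other genes were not counted here either.

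The partners through which KRAB zinc finger proteins silence repeats were placed in the same way. Of a list of 27 genes, 23 were matched on chromosomes 1 to 18, and 6 of them were at an anchor (26.1%, Wilson interval 12.5 to 46.5%), with 1 loop each. The interval includes the 17.8% of all protein-coding genes, so the list is not shown to differ from them. CBX3 and CBX5, which encode heterochromatin protein 1 gamma and alpha, had 158 and 134 contacts over 125 and 100 kb. ATF7IP, the partner of SETDB1, had 111 over 250 kb, and CHD3, a remodeller of the NuRD complex, had 142 over 100 kb. DNMT3A, a DNA methyltransferase, had 110 over 175 kb, and DAXX, a chaperone of histone H3.3, had 133 over 125 kb. Ratios of observed to expected contacts were 1.64 (CBX3), 1.75 (CBX5), 1.56 (CHD3), 1.82 (DNMT3A) and 1.76 (DAXX), below the autosomal median of 2.001. That of ATF7IP, 2.51, was above it. TRIM28 itself, on chromosome 6 like the largest share of the members, was 469 kb from an anchor and 364 kb from a TAD edge. SETDB1 was 107 kb from an anchor and 19.8 kb from an edge. None of the 6 loops had a ZNF end at either anchor.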

How the data were processed

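Per the submitters' processing notes HiC-Pro 3.1.0 was used. Per the file headers, juicer_tools 1.9.9 made the loop list. Its deposited values are the raw count of contacts at each loop, the expected signal in the donut around it and a q-value (FDR) against each of 4 neighbourhoods. The TAD caller, the genome build and any pooling of the 2 replicates are not stated in the labels or headers.

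Genes came from RefSeq's table of Sscrofa11.1, which has no strand, so either annotated end was used. Autosomal anchors held 0.870 gene ends on average, against at most 0.696 when displaced by 100 to 500 kb. Loops were ranked by their largest FDR. Pixels were joined when both bins were equal or adjoining. Placement was tested on simulated data. Shares have 95% Wilson intervals (scipy 1.17.1, Python 3.11.15). The members and lists were chosen with earlier results of these data known. The genes named were the 15 members with the most loops, ties by contacts, those joined by a loop, the 8 largest clusters, lone genes with most loops, members alone in a TAD and silencing genes at anchors. All other genes named, such as ZNF143, ZNF512B, ZNF331, the ZNF385 paralogs, TRIM28 and SETDB1, were chosen after their values were seen. Other settings tried were other windows, overlaps, gaps and loop lists.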

Additional observations from a re-analysis of the deposited data

How the results depend on the processing

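No paired analysis was possible because the tables hold no value per replicate, and no replicate could be left out. The alternative with the gene start alone was not run, since the gene table has no strand. Of 83 alternative values, 47 stayed within the interval of the reported share or median or within 1.5 times the reported count. The other 36 moved beyond that. With anchors extended by 10 kb, 20.2% of all members and 23.3% of lone members were at anchors (all genes 25.2%). By gene midpoints the shares were 7.44% and 7.75% (all genes 10.3%). In the loops with the lowest FDR (1701 of the 3402 placed loops), 3.72% of members, 0% of clustered and 6.98% of lone members were at anchors (all genes 9.66%). In the same loops 9.50% of members lay under a loop (all genes 10.8%), 10 loops had a ZNF end, and their median ratio to expected contacts was 2.01 (all loops 2.16). The 15 named members with the most loops had 20 in all, 7 in this list and 13 when touching pixels were reduced to the one with the lowest FDR. Within 10 kb of a TAD edge lay 8.26% of members and 6.19% of clustered members (all genes 11.5%). Within 40 kb lay 22.7%, 20.4% of clustered and 24.8% of lone members (all genes 30.6%). Without the clusters on chromosomes 3 and 14 that a loop joins, a choice made after the values were seen, 3.92% of clustered members were at anchors. For all members that choice could only lower the share (9.96%), and it is 1 of the 8 alternatives at anchors counted next. Another of the 8 took zinc finger genes out of the comparison alone (17.9%), which left the members at 12.8% by design. The share of all members was below that of all protein-coding genes under each of 8 alternatives at anchors and 3 at edges. Its interval included the latter with anchors extended by 10 kb (15.7 to 25.8%), by midpoints (4.76 to 11.4%), with touching pixels reduced (7.44 to 15.3%, all genes 15.2%), with 1 gene per 100 kb (9.43 to 19.4%, all genes 17.8%) and within 10 kb of an edge (5.41 to 12.4%). Inside TADs it was 32.6% with the whole gene inside (all genes 26.8%) and 36.8% with any overlap (all genes 36.6%). Library depth is unknown here, and the anchor share of clustered members rests on 6 loops.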
